A study of Homo sapiens with 8 samples.

Results

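The 38 genes described here act in G2 and mitosis. They are cyclins, mitotic kinases, kinesins, spindle checkpoint genes and their partners, and they were chosen by name from the 33045 gene names of 1 count table, with at least 10 reads in some library. All 38 met that minimum, with 432 to 32385 reads in every library, and each lay on 1 chromosome. The data are RNA sequencing of a pair of acute myeloid leukemia cell lines, KASUMI-1, which carries the RUNX1::RUNX1T1 fusion and was labelled sensitive to LSD1 inhibition, and THP-1, of monocytic type with a fusion of KMT2A, which was labelled resistant. The agents were the LSD1 inhibitor DDP38003 at 0.5 µM, here called LSD1i, and vehicle, and LSD1 is a demethylase of histones. The study chose the times of each line after it had seen the kinase mTOR respond. The 8 groups were KASUMI-1 with LSD1i for 6 h or 72 h, KASUMI-1 with vehicle for 6 h or 72 h, THP-1 with LSD1i for 24 h or 72 h and THP-1 with vehicle for 24 h or 72 h. Each was 1 library, so each line had 2 pairs of LSD1i and vehicle libraries, and the early times differ between the lines.

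Passage from G2 into mitosis is driven by the kinase CDK1 bound to cyclins A and B, which the CDC25 phosphatases activate by removing inhibitory phosphates. The kinases PLK1 and AURKA build the spindle, the chromosomal passenger complex and the kinesins correct and move chromosomes, and the spindle checkpoint holds the anaphase-promoting complex (APC/C), a ubiquitin ligase, inactive until all chromosomes are attached. CDC20 then activates the APC/C, and separase cuts the cohesin that holds sister chromatids. Transcripts of most of these genes peak together in G2 and mitosis of cycling cells. Many do so through a promoter element called the cell cycle genes homology region (CHR) and nearby CCAAT boxes. The MuvB complexes (with B-MYB and FOXM1, or in DREAM) and NF-Y bind these elements. The summed level of the genes in a culture therefore goes largely with the share of cells in those phases. The phase at which each gene peaks was not measured here. CDC25A, CDC25B, UBE2C and BUB3 did not follow the mean of the set closely over these libraries. A fall of a single gene such as CDC25A is therefore no reading of those phases. In bulk RNA, fewer cells in G2 or mitosis and less RNA of these genes per cell cannot be told apart.

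The promoter letters of 32 of the 38 genes were in the RefSeq table (GRCh38.p14). AURKA, BIRC5, BUB3, TTK, UBE2C and TPX2 were not among them. The CHR was searched as TTTGAA or, on the other strand, TTCAAA, and the CCAAT box as CCAAT or ATTGG, from 250 bases before to 50 bases after the first listed start of each gene. The letters of both motifs can overlap, as they do in CDCA8. A CHR stood in 20 of the 32 promoters (62.5%), against 15.43% of the 27305 genes in the table, a CCAAT box in 25 (78.12%), against 35.7%, and both in 17 (53.12%), against 6.083%. With only 150 bases before the start, the CHR share was 59.38% against 9.566% and the CCAAT share 71.88% against 27.48%. These are matches of letters and not sites shown to be bound. The 150 bases before the start are printed for 5 genes, chosen because the results below turn on CDC20, PLK1, CDC25A and CDC25B and because CCNB2 has the CHR and CCAAT boxes side by side. Capitals mark the CHR and the CCAAT boxes. They are chr1:43358831-43358980 (plus strand), chr16:23678739-23678888 (plus), chr15:59104996-59105145 (plus), chr3:48188418-48188567 (minus) and chr20:3786801-3786950 (plus), each 5′ to 3′ on the strand of the gene.
CDC20: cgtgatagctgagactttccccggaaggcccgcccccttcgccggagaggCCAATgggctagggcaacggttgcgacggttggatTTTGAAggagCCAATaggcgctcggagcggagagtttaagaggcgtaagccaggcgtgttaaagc
PLK1: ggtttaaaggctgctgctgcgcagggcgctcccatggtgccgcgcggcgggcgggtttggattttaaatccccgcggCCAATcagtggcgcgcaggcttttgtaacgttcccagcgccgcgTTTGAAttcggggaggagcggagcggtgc
CCNB2: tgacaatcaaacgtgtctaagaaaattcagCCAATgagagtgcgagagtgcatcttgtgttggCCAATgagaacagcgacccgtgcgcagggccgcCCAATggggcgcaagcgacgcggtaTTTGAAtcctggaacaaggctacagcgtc
CDC25A: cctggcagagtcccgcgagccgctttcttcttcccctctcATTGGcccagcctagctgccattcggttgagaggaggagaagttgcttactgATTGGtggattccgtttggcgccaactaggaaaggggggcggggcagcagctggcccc
CDC25B: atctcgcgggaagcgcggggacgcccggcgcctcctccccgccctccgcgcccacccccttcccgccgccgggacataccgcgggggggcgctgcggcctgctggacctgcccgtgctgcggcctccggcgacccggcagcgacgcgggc
The CDC20 stretch has a CHR that begins 65 bases before the start and CCAAT boxes at 100 and 55 bases before it. In PLK1 the CHR begins 29 bases before the start and the CCAAT box 73 bases before it, and in CCNB2 the CHR also begins at 29 with CCAAT boxes at 120, 87 and 54. CDC25A has a pair of CCAAT boxes on the other strand, at 110 and 58, and no CHR in this window, and CDC25B has neither motif in it.

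Counted reads per library ranged from 23722972 to 45970766, and the KASUMI-1 vehicle library at 72 h was the shallowest. The line labels were checked against markers: RUNX1T1, CD34, KIT and MPO summed to 2211 to 3157 RPKM in the 4 KASUMI-1 libraries and to 4.05 to 7.55 RPKM in the 4 THP-1 libraries, and HOXA9 stood at 0.38 to 0.63 RPKM in KASUMI-1 and at 22.1 to 23.4 RPKM in THP-1. Of the other THP-1 markers listed, HOXA10 separated the lines less, with 8.44 to 10.35 RPKM in KASUMI-1 and 13.03 to 15.08 RPKM in THP-1, CD14 reached 0.051 RPKM in KASUMI-1 and stood at 0.327 to 2.18 RPKM in THP-1, and MEIS1 was near 0 in every library (at most 0.029 RPKM). HBB, a defining marker of erythroid cells, had no reads in any library, and MS4A1, of B cells, had at most 1 read. Other B and T cell markers were read in KASUMI-1, CD79B at 23.5 to 55.1 RPKM, CD79A at 3.15 to 4.26 RPKM, CD3D at 1.94 to 2.77 RPKM, CD3G at 0.342 to 1.015 RPKM and CD3E at 0.053 to 0.288 RPKM, as was the epithelial EPCAM at 66.3 to 86.7 RPKM. The 5 T cell markers summed to 2.63 to 3.51 RPKM in KASUMI-1 and to 0.324 to 0.936 RPKM in THP-1. RPKM here means reads per kilobase of exon and per unit of library size (CPM divided by length), scaled with TMM factors, which set the bulk of genes equal between libraries. Each value below is 1 library, and no label says that libraries came from separate cultures. The p-values therefore reflect nothing but the spread among these libraries, part of which may be technical. In the fits the times of a line took the place of replicates, so that spread also holds changes with time.

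The first question was how the G2 and mitosis genes stood in the sensitive line after LSD1i. In KASUMI-1 at 72 h, 35 of the 38 genes were lower with LSD1i than with vehicle, with a median log2 ratio of -0.35, whereas 46.73% of all 11057 genes at 2 CPM or more were lower and their median was 0.04. Summed over the 38 genes, the level was 1095 RPKM with LSD1i and 1388 RPKM with vehicle at 72 h. At 6 h it was 1457 RPKM with LSD1i and 1513 RPKM with vehicle, 18 of the 38 were lower, and the median log2 ratio was 0.01, against -0.04 for all genes. The ratio was lower at 72 h than at 6 h for 37 of the 38 genes, against 43.09% of all genes, with BUB3 the exception. Since each time had 1 library per agent, these ratios have no replicate check and carry no p-value.

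At 72 h 6 genes were past 1.5-fold lower in KASUMI-1 (15.8%, where 8.19% of all genes were) and 0 past 1.5-fold higher (11.6% of all genes). They were CDC20, KIF2C, CDC25A, PLK1, BIRC5 and INCENP, whose parts in mitosis are given with their values below. The last of them stood just past the fold at a log2 ratio of -0.59, with CDCA3 at -0.58 and ESPL1 at -0.56 just short of it. At 6 h 0 of the 38 were past 1.5-fold in either direction, where 3.78% of all genes were higher and 1.71% lower, and the ratios ran from -0.32 (BIRC5) to 0.35 (KIF11).

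**Figure D1:**
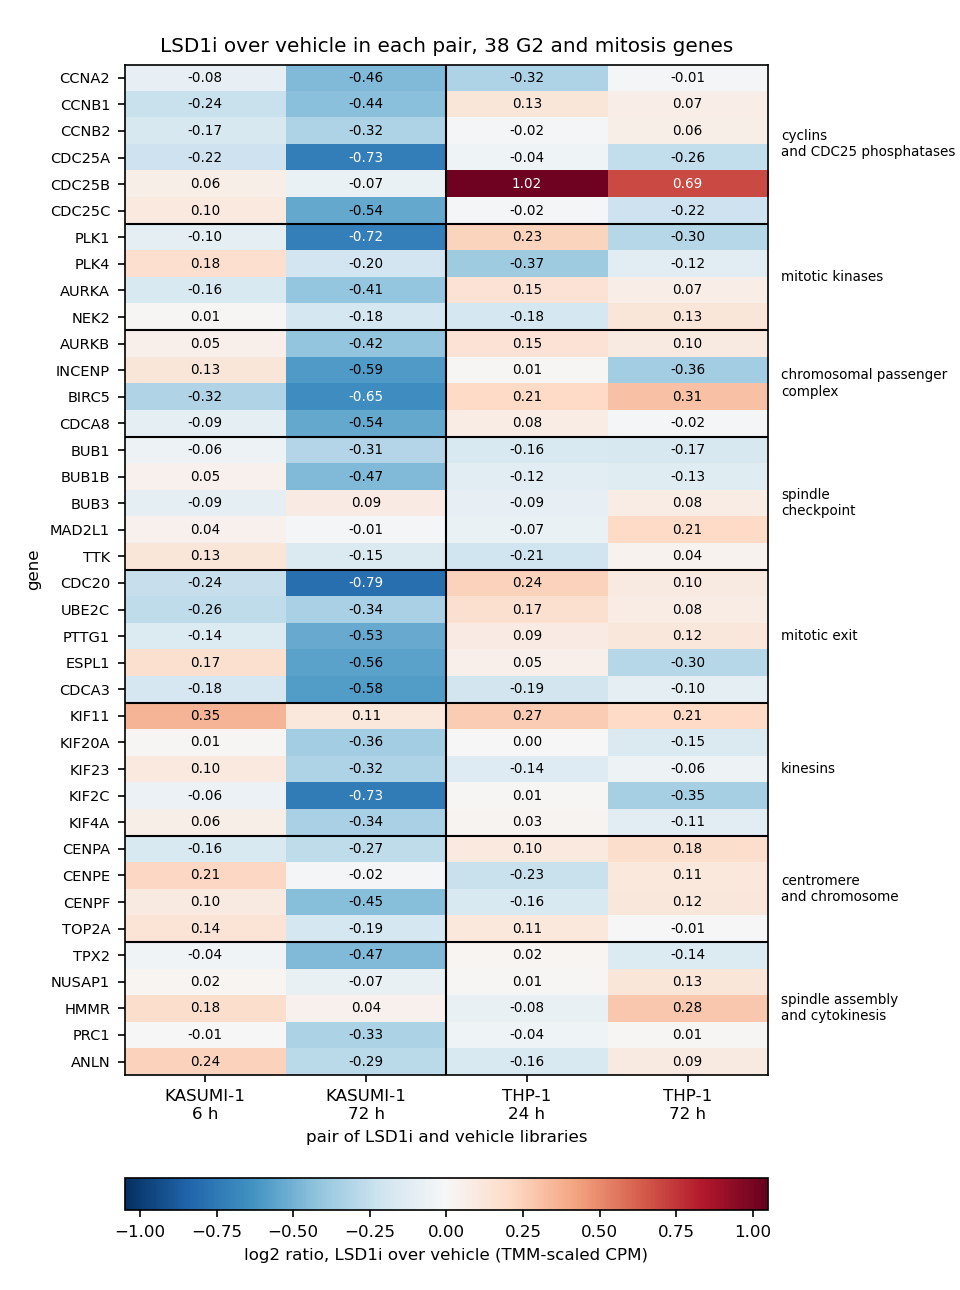
The log2 ratio of LSD1i over vehicle (TMM-scaled CPM, color and printed value) for each of the 38 genes (rows, by role) in the 4 pairs of libraries (columns). The KASUMI-1 72 h column is below 0 for 35 of 38 genes, and CDC25B stands out in both THP-1 columns at 1.02 and 0.69.

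Among the cyclins and CDC25 phosphatases all 6 were below 0 in KASUMI-1 at 72 h, with a median log2 ratio of -0.45. CDC25A, a phosphatase that activates CDK2 and CDK1, had 16.5 RPKM at 6 h and 13.2 RPKM at 72 h with LSD1i, against 19.2 and 21.8 RPKM with vehicle. Both LSD1i libraries lay below both vehicle libraries. CCNB1, the main cyclin B of mitotic entry, had 91.4 and 65.4 RPKM with LSD1i against 107.7 and 88.7 RPKM with vehicle, so that the 6 h LSD1i library was above the 72 h vehicle library. CCNB2, the second B-type cyclin, had log2 ratios of -0.17 and -0.32 at 6 and 72 h, and CCNA2, the S and G2 cyclin, of -0.08 and -0.46. CDC25C, which acts on CDK1 at mitotic entry, had 7.83 RPKM at 6 h and 7.82 RPKM at 72 h with LSD1i, against 7.28 and 11.4 RPKM with vehicle. Its LSD1i level was alike at both times and its vehicle level was higher at 72 h. CDC25B, a phosphatase that starts CDK1 activation at the centrosome, had 12.4 and 11.6 RPKM with LSD1i against 11.9 and 12.2 RPKM with vehicle, and these overlapped.

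Of the mitotic kinases, PLK1, which acts from mitotic entry to cytokinesis, had 17.1 and 11.2 RPKM with LSD1i at 6 and 72 h, against 18.3 and 18.5 RPKM with vehicle. The 72 h LSD1i library was the lowest of the 8 for this gene. AURKA, the centrosome kinase, had log2 ratios of -0.16 and -0.41, PLK4, which starts centriole duplication, of 0.18 and -0.20, and NEK2, a kinase of centrosome separation, of 0.01 and -0.18. In the chromosomal passenger complex all 4 members were below 0 at 72 h, with a median of -0.57. BIRC5 (survivin), which targets the complex to centromeres, had 78.1 and 61.2 RPKM with LSD1i against 97.5 and 96.2 RPKM with vehicle, without overlap. INCENP, the scaffold of the complex, had 8.06 and 5.54 RPKM with LSD1i against 7.38 and 8.36 RPKM with vehicle, higher at 6 h and lower at 72 h. CDCA8 (borealin) was at -0.09 and -0.54 and the kinase AURKB at 0.05 and -0.42.

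The group listed as mitotic exit had all 5 genes below 0 at 72 h (median -0.56). It includes CDCA3, whose part as given below lies at mitotic entry. CDC20, the APC/C activator, had 55.3 RPKM at 6 h and 37.1 RPKM at 72 h with LSD1i, against 65.6 and 64.1 RPKM with vehicle, and the agents did not overlap. The 72 h log2 ratio of CDC20, -0.79 (95% counting interval -0.87 to -0.71), was the lowest of the 38 genes. PTTG1 (securin), the separase inhibitor, stood at -0.14 and -0.53, ESPL1 (separase) at 0.17 and -0.56, CDCA3, which triggers degradation of a mitotic inhibitor kinase, at -0.18 and -0.58, and UBE2C, the ubiquitin-conjugating enzyme of the APC/C, at -0.26 and -0.34. The 5 spindle checkpoint genes had the role median nearest 0 at 72 h, -0.15. Of these BUB1B (BUBR1) was at -0.47 and BUB1 at -0.31, TTK, the kinase at the top of the checkpoint, at -0.15, MAD2L1 (MAD2) at -0.01 and BUB3 at 0.09.

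Among kinesins, KIF2C (MCAK), which takes microtubules apart at centromeres, had 36.0 and 25.5 RPKM with LSD1i at 6 and 72 h, against 37.6 and 42.4 RPKM with vehicle. Its vehicle libraries were both above its LSD1i libraries, by little at 6 h. KIF11 (Eg5), which pushes the spindle poles apart, went the other way, with 40.5 and 28.6 RPKM with LSD1i against 31.7 and 26.5 RPKM with vehicle. KIF11 was also above 0 in both THP-1 pairs (0.27 and 0.21), the only one of the 38 above 0 in all 4 pairs, against 13.18% of 9992 genes. CCNA2, CDC25A, BUB1 and CDCA3 were below 0 in all 4 (10.5%, against 11.27% of those genes). KIF20A, KIF4A and KIF23, kinesins of the central spindle, were between -0.36 and -0.32 in KASUMI-1 at 72 h. At the centromere and on the chromosome the same ratios were -0.45 for CENPF, -0.27 for the centromeric histone CENPA, -0.19 for topoisomerase TOP2A and -0.02 for the kinetochore motor CENPE. Of the spindle assembly and cytokinesis genes TPX2, the activator of AURKA, was at -0.47, PRC1, which bundles the midzone, at -0.33, ANLN (anillin) of the contractile ring at -0.29, NUSAP1 at -0.07 and HMMR, both microtubule-binding proteins, at 0.04.

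**Figure D2:**
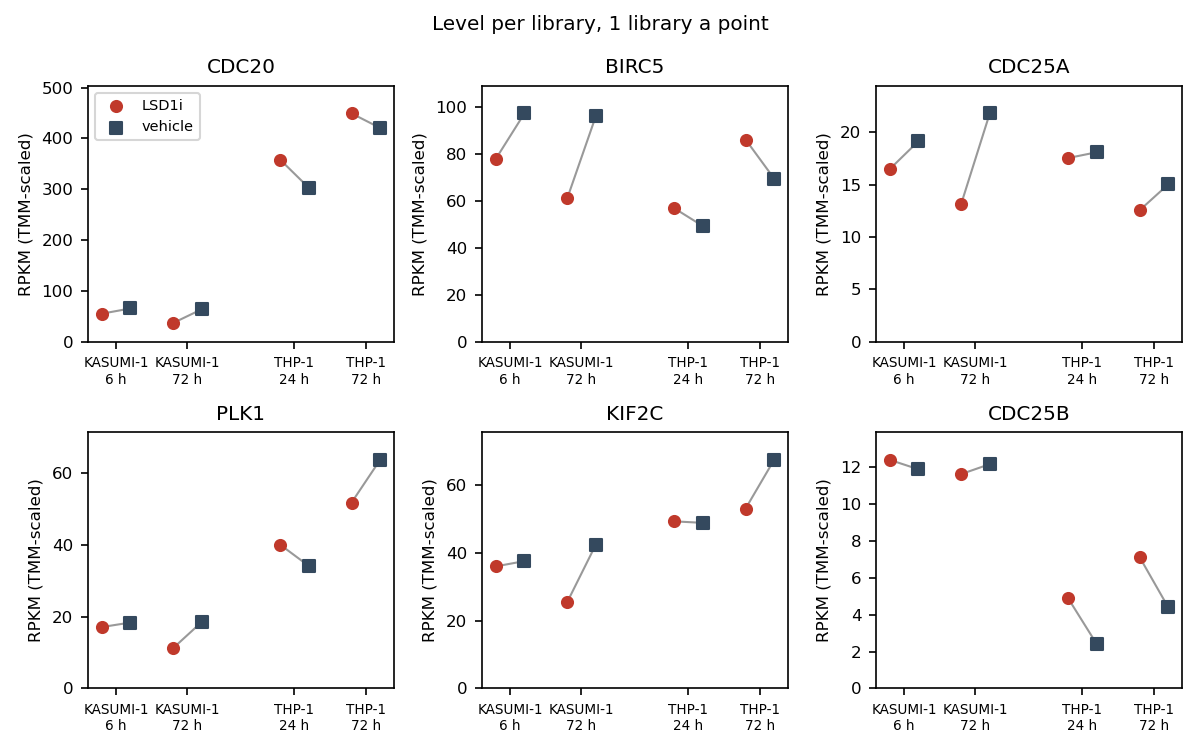
The level in RPKM (TMM-scaled, linear axis from 0) of CDC20, BIRC5, CDC25A, PLK1, KIF2C and CDC25B in each of the 8 libraries, LSD1i as circles and vehicle as squares, joined within a pair. In KASUMI-1 the LSD1i points of all but CDC25B lie below both vehicle points. Those genes were picked among the ones past 1.5-fold lower there at 72 h, so the choice partly fixed this order. INCENP, also past the fold and not drawn, overlapped, with 8.06 and 5.54 RPKM with LSD1i against 7.38 and 8.36 RPKM with vehicle. The order is not particular to the genes drawn. CCNB2, CDCA8, PTTG1 and CDCA3, short of the fold and not drawn, had it too, and the share of all genes with it is not given. In THP-1 the CDC25B LSD1i points, 4.88 and 7.13, lie above both vehicle points, 2.40 and 4.42.

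A value that moved with these ratios was gene length. Across the 38 genes the KASUMI-1 6 h ratio had a Pearson r of 0.60 with the log2 exon length, and across all genes 0.34; at 72 h these were 0.20 and 0.22, and in THP-1 they lay between -0.14 and -0.04. Genes share their libraries, so these are descriptions across genes, and the part of length in the ratios was not tested. The 19 shorter genes had a median of -0.10 and the 19 longer ones of 0.06 at 6 h, and at 72 h both were below 0, at -0.42 and -0.33. At 72 h in KASUMI-1 the 20 genes with the CHR letters in the promoter had a median of -0.33. The 12 whose promoter letters held no such match had a median of -0.43. Only exact letters near the first listed start were searched, so a variant of the element would be missed.

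The fit over all 8 libraries, with a term for each pair, gives 1 fold per line that averages its 2 times. In KASUMI-1 the fitted log2 fold was below 0 for 34 of the 38 genes, with a median of -0.19 against 0.02 for all 16060 genes tested. By edgeR's quasi-likelihood test, adjusted by Benjamini and Hochberg at 0.05, 3 of the 38 fell (7.90%, where 5.09% of all genes tested fell) and 0 rose (7.02% of all genes). With an unadjusted p under 0.05, 11 were lower and 0 higher, and DESeq2 called 4 lower and 0 higher. The share called by edgeR at the adjusted threshold is thus near that of all genes. Here and below, counts at an unadjusted p or by DESeq2 stand without the share of all genes and cannot be read against it. CDC25A fell by 0.47 ± 0.14 in log2 units (approximate standard error; edgeR adjusted p = 0.0348), BIRC5 fell by 0.49 ± 0.13 (0.0214) and CDC20 fell by 0.52 ± 0.15 (0.0322), each lower in 2 of 2 pairs.

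Those 3 calls rested on the 72 h pair: without it CDC25A stood at -0.22 (edgeR adjusted p = 0.665), BIRC5 at -0.32 (0.450) and CDC20 at -0.25 (0.644), and 0 of the 38 were called. Without the 6 h pair, which left 1 library per agent in KASUMI-1, CDC25A stood at -0.72, CDC20 at -0.78 and BIRC5 at -0.65. Also low in that fit were PLK1 (-0.72), KIF2C (-0.73), INCENP (-0.59), CDCA3 (-0.58), ESPL1 (-0.56), CDCA8 (-0.53) and PTTG1 (-0.52). These folds rest on the same libraries as the 72 h ratios above. In that fit the lone KASUMI-1 pair is assumed to vary like the THP-1 pairs. Without the THP-1 24 h pair, which shares only the estimate of spread, 0 were called and without the THP-1 72 h pair 1, BIRC5 (adjusted p = 0.0494).

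In THP-1, the resistant line, the 38 genes showed no common direction. The summed level was 1821 RPKM with LSD1i and 1779 RPKM with vehicle at 24 h. At 72 h it was 2399 RPKM with LSD1i and 2319 RPKM with vehicle. CDC20, the most abundant, weighed most in these sums. The median level of the 38 was 31.6 RPKM with LSD1i and 33.8 RPKM with vehicle at 24 h, the other direction. At 72 h this median was 47.6 RPKM with LSD1i and 45 RPKM with vehicle. Of the 38 ratios 18 were below 0 at 24 h (median 0.01, all genes 0.01) and 17 at 72 h (median 0.05, all genes -0.001). Past 1.5-fold higher stood 1 gene at each time, CDC25B, where 6.56% of all genes were past it at 24 h and 7.18% at 72 h. Past 1.5-fold lower stood 0, where 2.49% and 5.54% of all genes were.

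CDC25B had 4.88 RPKM at 24 h and 7.13 RPKM at 72 h with LSD1i in THP-1, against 2.40 and 4.42 RPKM with vehicle. Both LSD1i libraries were above both vehicle libraries, and even the highest stayed below the 4 KASUMI-1 libraries (11.6 to 12.4 RPKM). The fitted log2 fold was 0.85 ± 0.14 (edgeR adjusted p = 0.00046), higher in 2 of 2 pairs, and was the only one of the 38 called higher (2.63%, where 6.51% of all genes tested rose). In the same test 0 fell (2.85% of all genes), 0 at an unadjusted p under 0.05 and 0 by DESeq2. Without the THP-1 24 h pair CDC25B stood at 0.67 (adjusted p = 0.0810).

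Other members in THP-1 were spread to both sides. BIRC5 had 57.0 and 86.3 RPKM with LSD1i at 24 and 72 h, against 49.4 and 69.7 RPKM with vehicle, higher in both pairs but with overlap between the times (fitted log2 0.26 ± 0.13, edgeR adjusted p = 0.283). CDC20, the most abundant of the 38 per length in this line, had 358 and 449 RPKM with LSD1i against 303 and 421 RPKM with vehicle. PLK1 had 40.0 and 51.8 RPKM with LSD1i against 34.1 and 63.7 RPKM with vehicle, higher at 24 h and lower at 72 h. PLK4 was the lowest at 24 h (-0.37) and INCENP at 72 h (-0.36), with KIF2C at -0.35 there.

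The difference of the response between the lines was tested as a contrast of the fitted folds, KASUMI-1 minus THP-1. It was lower for 2 of the 38 (5.26%, where 3.07% of all genes tested were) and higher for 0 (2.62% of all genes, 0 also at an unadjusted p under 0.05 and by DESeq2). CDC25B had a difference of -0.86 ± 0.20 in log2 units (edgeR adjusted p = 0.0166) and BIRC5 by -0.74 ± 0.18 (0.0242). For BIRC5 both KASUMI-1 pairs were below 0 and both THP-1 pairs above it, and for CDC25B the difference lay in the THP-1 pairs. CDC20 differed by -0.68 ± 0.21 (adjusted p = 0.0628, not called, and 0.0217 by DESeq2). Over the 38 genes 32 differences were below 0, with a median of -0.10 against 0.03 for all genes. The early times differ between the lines, and line and early time cannot be told apart in this contrast. The calls of CDC25B and BIRC5 ended without either THP-1 pair, and that of BIRC5 also without the KASUMI-1 72 h pair. Without the KASUMI-1 6 h pair, which left 1 library per agent in that line, BIRC5 differed by -0.905 and CDC25B by -0.914. In that fit CDC20 differed by -0.952, PLK1 by -0.682 and PTTG1 by -0.621.

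With 1 fold for both lines over the 4 pairs, 0 of the 38 were called in either direction by edgeR's quasi-likelihood test, where 3.8% of all genes tested rose and 0.785% fell. At an unadjusted p under 0.05 there were 2 higher and 1 lower, and by DESeq2 0 and 0. The lowest fitted log2 fold was -0.31 (CDC25A) and the highest 0.42 (CDC25B).

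**Figure D3:**
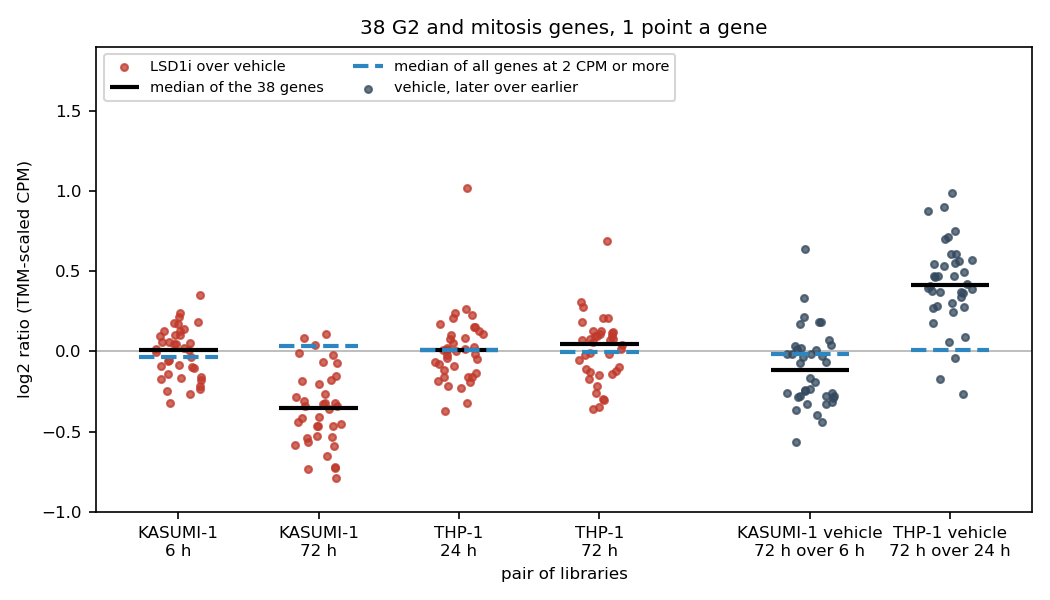
The log2 ratio (TMM-scaled CPM) of each of the 38 genes (points) in the 4 pairs of LSD1i and vehicle libraries and in the vehicle libraries over time, with the median of the 38 (solid line) and of all genes at 2 CPM or more (dashed line). The medians of the 38 are 0.01 and -0.35 in the KASUMI-1 pairs, 0.01 and 0.05 in the THP-1 pairs, and -0.12 and 0.42 in the vehicle libraries over time.

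Vehicle libraries also differed with time, and differently in the lines. In THP-1 the 38 genes summed to 2319 RPKM at 72 h and 1779 RPKM at 24 h with vehicle, and 35 of 38 were higher at 72 h, with a median log2 ratio of 0.42 against 0.01 for all genes. Past 1.5-fold higher were 8 of them (21.1%, where 3.26% of all genes were) and past 1.5-fold lower 0 (1.75% of all genes). They were ESPL1 (0.99), PLK1 (0.90), CDC25B (0.88), KIF20A (0.75), CDC25C (0.71), INCENP (0.70), CCNB1 (0.61) and TPX2 (0.61). In KASUMI-1 vehicle libraries the sum was 1388 RPKM at 72 h and 1513 RPKM at 6 h, 26 of the 38 were lower at 72 h and the median was -0.12. CDC25C alone was past 1.5-fold higher (0.64, where 6.07% of all genes were past it) and 0 past 1.5-fold lower (4.04% of all genes). The 72 h vehicle libraries stand in these ratios and in the 72 h LSD1i ratios alike, so the ratios are not independent. Culture density and growth were not measured in these files, and their part was not tested.

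The level of the genes before any inhibitor was compared in the 4 vehicle libraries, KASUMI-1 over THP-1. Of the 38, 15 were lower in KASUMI-1 (39.5%, where 30.1% of all 15456 genes tested were) and 3 higher (7.90%, where 26.4% were), by edgeR's quasi-likelihood test at an adjusted p of 0.05. CDC20 had 65.6 and 64.1 RPKM in KASUMI-1 against 303 and 421 RPKM in THP-1, a log2 fold of -2.48 ± 0.19 (adjusted p = 1.79e-06). It ranked 8 of 38 by mean level in KASUMI-1 and 1 in THP-1. NUSAP1 (-1.48), HMMR (-1.47), PLK1 (-1.41), NEK2 (-1.25), ANLN (-1.04) and BUB1B (-1.03) were also lower in KASUMI-1. Spindle assembly and cytokinesis genes stood lowest as a role, all 5 below 0 with a median of -1.04.

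Higher in KASUMI-1 were CDC25B, UBE2C and BIRC5. CDC25B had 11.9 and 12.2 RPKM in KASUMI-1 against 2.40 and 4.42 RPKM in THP-1, a log2 fold of 1.82 ± 0.26 (edgeR adjusted p = 0.000167). UBE2C had 71.6 and 54.3 RPKM against 23.6 and 31.4 RPKM in THP-1 (1.19 ± 0.20, adjusted p = 0.000562). BIRC5 had 97.5 and 96.2 RPKM against 49.4 and 69.7 RPKM in THP-1 (0.70 ± 0.19, adjusted p = 0.00851), a call that ended without the THP-1 vehicle library at 24 h (0.46, adjusted p = 0.133). In all 3 the lines did not overlap, which is no further support because the calls came from the same vehicle libraries. In KASUMI-1 the highest levels per length were those of CCNB1, BIRC5, MAD2L1 and PTTG1, whose ranges over the vehicle times (83.3 to 107.7 RPKM) overlapped, and the lowest was that of ESPL1 (4.15 and 4.81 RPKM). In THP-1 CDC20 was followed by NUSAP1 (110.6 and 133.4 RPKM) and TOP2A (88.3 and 122.1 RPKM), which overlapped each other and not CDC20, and the lowest was CDC25B.

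**Figure D4:**
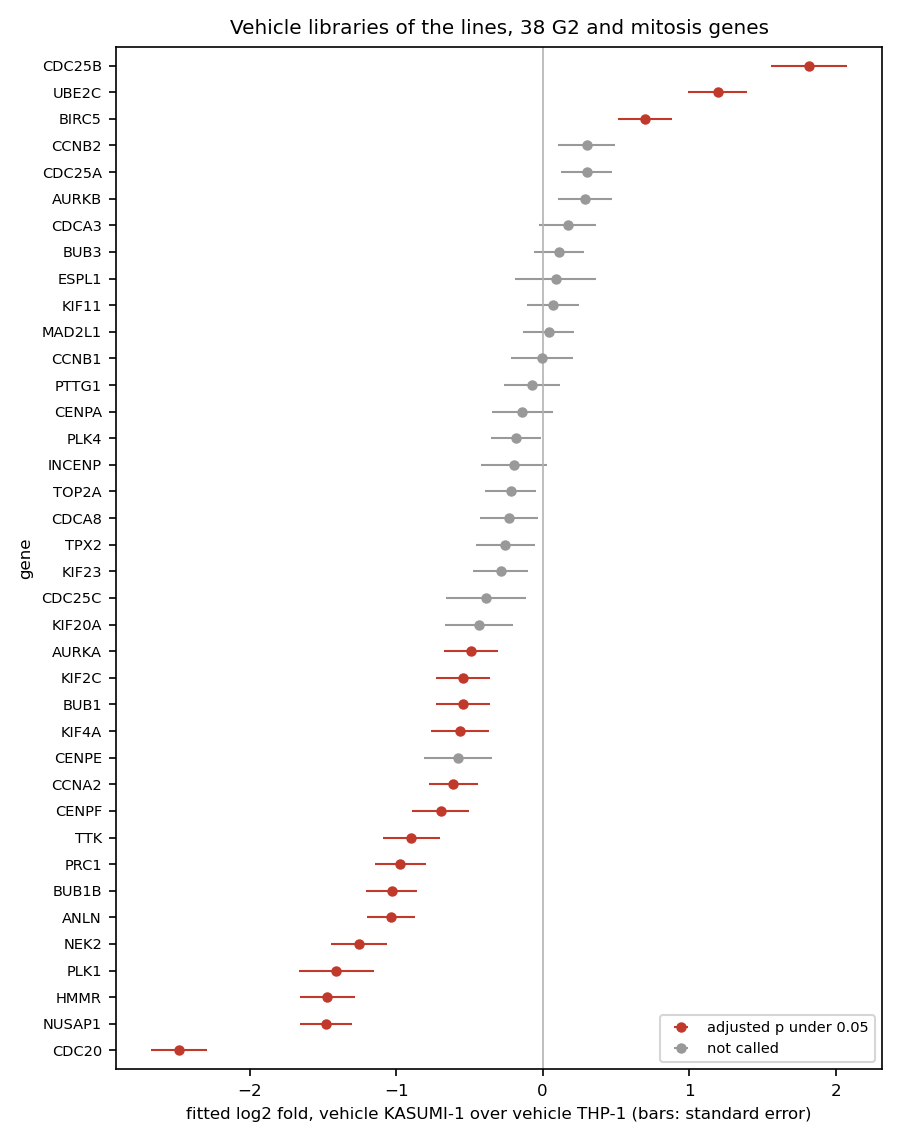
The fitted log2 fold of vehicle KASUMI-1 over vehicle THP-1 with its approximate standard error (bars) for the 38 genes, 2 libraries a line; red marks an adjusted p under 0.05 by edgeR's quasi-likelihood test. CDC20 is lowest at -2.48 and CDC25B highest at 1.82.

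Leaving out the THP-1 vehicle library at 72 h ended the calls of AURKA, BUB1, KIF2C, KIF4A and CENPF (log2 folds between -0.41 and -0.28), 10 genes were then lower, and PLK1 stood at -0.92. The KASUMI-1 vehicle library at 72 h carried the calls of AURKA (-0.37), BUB1 (-0.42) and CCNA2 (-0.47), and that at 6 h the call of KIF2C (-0.45). The times differ between the lines in this comparison too, and line and time cannot be told apart. Reads were counted without regard to strand, and the exons of KIF20A share 45 bases with those of CDC23 on the other strand, where reads of both cannot be separated.

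Genes of the same pathway outside the 38 were read from lists of regulators and neighbours. In KASUMI-1 7.02% of all genes tested rose and 5.09% fell, and the counts called of the 22 regulators, the 29 kinetochore genes and the 29 other spindle genes were below those shares. Of the 22 regulators 1 rose, RB1, the retinoblastoma repressor of cell cycle genes (a fitted fold of 2.001, edgeR adjusted p = 0.000183), and 1 fell, MYBL2 (B-MYB), with 75.1 and 52.9 RPKM with LSD1i against 91.2 and 119 RPKM with vehicle (-0.72 ± 0.17, 0.0106). FOXM1, the activator of G2 and mitosis genes, had 22.1 and 15.8 RPKM with LSD1i against 22.3 and 19.9 RPKM with vehicle (-0.17 ± 0.13, 0.431). CDK1 itself, listed under its older name CDC2, had 158 and 105 RPKM against 162 and 118 RPKM with vehicle (-0.10 ± 0.13, 0.673). Of 11 CDK inhibitors and growth arrest genes tested, the antiproliferative BTG1 (0.84) and the CDK inhibitor CDKN1B (p27) rose (0.54 ± 0.12, 0.00802) and CDKN2A fell (-1.01, a call that DESeq2 did not make), while CDKN1A (p21) stood at -0.62 (0.0903).

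Genes of S phase and of DNA replication numbered 44, and in KASUMI-1 8 of them fell (5.09% of all genes did) and 0 rose by edgeR (median -0.32), 21 were lower and 1 higher at an unadjusted p under 0.05, and 12 were lower and 0 higher by DESeq2. Among them were FEN1, a flap endonuclease (-0.61), TK1, which makes thymidine monophosphate (-0.57), MCM7 of the replicative helicase (-0.53) and its partner CDC45 (-0.50). MYC, the growth regulator, fell by 0.42 ± 0.13 (edgeR adjusted p = 0.0428). Of 8 G1 cyclins and kinases CCNE1 (-0.47) and CDK4 (-0.46) fell. Of 15 APC/C subunits and inhibitors the subunit ANAPC11 (-0.66) and the ubiquitin-conjugating UBE2S (-0.59) fell, and of 10 genes around CDK1 its subunit CKS1B did (-0.40). The centromere protein CENPM (-0.61) was the 1 of 29 kinetochore genes called by edgeR, where DESeq2 called 2 lower, and the condensin subunit NCAPH2 (-0.65) the 1 of 16 condensin and cohesin genes. Of 29 other spindle genes PIMREG fell (-0.65) and CKAP2 rose (0.43) by edgeR, and DESeq2 called 3 lower and 1 higher. DESeq2 also called 2 of the CDK1 list lower and 1 G1 gene higher.

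In THP-1, RB1 (0.63 ± 0.13, edgeR adjusted p = 0.00361) and BTG1 (1.31) rose, CDK6 (-0.77) and the polymerase POLE (-0.48) fell, and of the APC/C list MAD2L1BP rose by edgeR (0.41) but not by DESeq2, where 6.51% of all genes tested rose and 2.85% fell by edgeR. Of the CDK1, kinetochore, condensin and spindle lists 0 genes were called in either direction there by edgeR or DESeq2, with 1 kinetochore and 1 spindle gene lower at an unadjusted p under 0.05. MYBL2 stood at -0.15 (0.708), FOXM1 at 0.05, CDK1 at 0.01, CDKN1A at 0.34, CDKN1B at -0.37 (0.0780) and MYC at -0.35 (0.116). CDKN1B differed between the lines by 0.91 ± 0.17 (0.00538) and CDK6 by 1.16 ± 0.19 (0.00142), higher in KASUMI-1. UBE2S (-0.78), MAD2L1BP (-0.74), ANAPC11 (-0.74), GINS3 (-0.74) and RPA2 (-0.73) differed the other way.

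Monocyte maturation markers moved with LSD1i in both lines beside these results. CD86, LY96, ITGAM, LYZ and CSF1R summed to 101.6 RPKM with LSD1i and 21.7 RPKM with vehicle at 6 h in KASUMI-1, and to 293 with LSD1i and 26.6 with vehicle at 72 h. In THP-1 they summed to 3265 with LSD1i and 595 with vehicle at 24 h, and to 7386 with LSD1i and 360.0 with vehicle at 72 h. All 5 were higher with LSD1i in all 4 pairs, none was at 0, and LYZ made up most of each sum. The G2 and mitosis genes were mostly lower in 1 of those 4 pairs, that of KASUMI-1 at 72 h, and the part of the markers' change in it was not tested.

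The genes outside the 38 whose level followed the mean of the 38 most closely over the 8 libraries were CENPI (Pearson r = 0.970), DLGAP5 (0.969), KIF14 (0.928), a gene listed as HCAP-G (0.923) and GTSE1 (0.919). DLGAP5 had 27.6 and 20.0 RPKM with LSD1i and 28.8 and 25.2 RPKM with vehicle in KASUMI-1, and 27.1 and 47.0 RPKM with LSD1i and 28.9 and 45.5 RPKM with vehicle in THP-1. Within the 38, TPX2 and KIF20A were closest to the mean (0.98 each), which includes every one of the 38. CDC25B (-0.31), UBE2C (-0.20) and CDC25A (-0.17) had weak values below 0. The 8 libraries share lines and times, and these values describe them without a test.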

How the data were processed

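RNA of 8 libraries, 4 pairs of LSD1i and vehicle in a pair of cell lines, was sequenced after a TruSeq preparation, per the labels. The deposited file is 1 table of raw read counts per gene and library. FeatureCounts 1.5.2 made these counts on Ensembl 54 gene models (NCBI build 36) with no strand option, per the file headers. TopHat2 2.0.10, Subread, edgeR, FastQC 0.10.0 and the build hg18 are named in the submitters' processing notes. Trimming is not given in the sources used here.

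From these counts, edgeR 4.0.16 (R 4.3.3) gave quasi-likelihood tests with TMM normalization on the 16060 genes that passed filterByExpr (minimum count 10). Terms for the 4 pairs, matched by line and time, entered the model, with an LSD1i coefficient for each line (2 residual degrees of freedom; 3 with a single coefficient; common dispersion 0.0115). The vehicle libraries had a fit of their own (15456 genes), in which the times of a line stood in for replicates. Adjustment followed Benjamini and Hochberg over all genes tested. The tests were also run on simulated counts. Single pairs got no test: log2 ratios used TMM-scaled CPM and a prior count of 2, and a gene past 1.5-fold also had an exact conditional binomial 95% interval that excluded equality. Such intervals hold counting error alone, because each side of a ratio was 1 library. They make no allowance for PCR copies, which were not told apart by molecular identifiers. RPKM was computed from the counts and the exon lengths of the deposited table. Motif shares used the RefSeq promoters of GRCh38.p14 without chromosome 8.

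The 38 genes, the other lists (185 of 189 genes matched, 16 by an older name) and the markers (29 of 30) were chosen with earlier results of these data known. Of each list at most 4 called genes, or where none was called 2 genes, could be named, with FOXM1, MYBL2, CDK1, CDKN1A, CDKN1B and MYC whatever their values, and the 5 genes of most similar level. DESeq2 1.42.0, RLE normalization, no filter, no pair term, the line's own libraries, a prior count of 0.5, 2-fold, and leaving out each pair or vehicle library were alternatives.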

Additional observations from a re-analysis of the deposited data

Results flagged for a closer look

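The response to LSD1i differed between the lines for 2 of the 38 genes. CDC25B differed by -0.857 on the log2 scale, KASUMI-1 minus THP-1, and BIRC5 by -0.743, by the contrast of the fitted folds (adjusted p = 0.0166 and 0.0242, edgeR's quasi-likelihood test). CDC25B was higher with LSD1i in 2 of 2 THP-1 pairs, with KASUMI-1 ratios of 0.06 and -0.07. BIRC5 was lower in 2 of 2 KASUMI-1 pairs and higher in 2 of 2 THP-1 pairs. Without the pair term the adjusted p was 0.434 for CDC25B and 0.412 for BIRC5. The early times differ between the lines, so line and time cannot be told apart. No group had the 4 libraries that a check for a stray sample needs.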

How the results depend on the processing

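Leaving out 1 pair in turn gave 0 to 10 G2 and mitosis genes lower in KASUMI-1 (3 with all pairs), 0 to 1 higher in THP-1 (1), 0 to 5 lower in the difference of response (2) and 0 to 1 higher over the 4 pairs (0); leaving out 1 vehicle library gave 10 to 18 lower in KASUMI-1 against THP-1 (15). Without the pair term 0 were lower in KASUMI-1, 0 higher in THP-1 and 0 lower in the difference, and with the line's own libraries 0 were lower in KASUMI-1. Without the filter 1 gene, CDC25B, was higher over the 4 pairs. At 2-fold in place of 1.5-fold, 0 genes were lower in KASUMI-1 at 72 h (6), 0 higher in THP-1 at 72 h (1), and 0 higher over time in the KASUMI-1 (1) and THP-1 (8) vehicle libraries. The cause of these moves was not tested. The shares of all genes called under these alternatives are not given, so the counts cannot be read against them. RLE normalization moved the median of all genes in a pair by at most 0.037 on the log2 scale. No fitted value or ratio of a called gene changed sign under any alternative run. A fit of the 72 h pairs alone, with 1 fold for both lines, was added after seeing the data and called 0. The median log2 ratio of the 38 at 72 h was -0.35 in KASUMI-1 and 0.05 in THP-1. A fold shared by the lines cannot check the fall in KASUMI-1 alone. No paired analysis by replicate number was possible because the labels carry none; the pair term comes from line and time. Each line, agent and time is 1 library, and the counting intervals cover counting error only.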
